A study of Homo sapiens with 6 samples.

Results

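The ETS factors ETV1, ETV4, ETV5, ERG, FLI1, ELF3, ELF5, EHF, SPDEF and ETS2 were examined, 10 genes of the 61279 to which transcripts were assigned and 10 of the 28 human ETS family genes. They were listed by symbol, with values of these same libraries already known, so the levels of the 10 genes are given below as a description and without a test. Of the 10 genes, 8 had reads in at least 1 library and 6 (ETV1, ELF3, ELF5, EHF, SPDEF and ETS2) passed the filter on low counts. The libraries are labelled as RNA-seq of T47D cells, a human hormone receptor-positive breast cancer line with mutant PIK3CA, grown in RPMI with serum. The labels give the genotype of both groups as WT, without saying of which gene. By the labels, the cells received DMSO, the vehicle, or 4 µM MI503 (MI-503) for 24 h. Each group had 3 libraries labelled as biological replicates. MI-503 disrupts the contact of menin with MLL1, a histone H3K4 methyltransferase. Each group is labelled as a single cell line at a single dose and time. Markers given below go against the T47D label in the DMSO libraries.

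ETS factors are transcription factors that share a winged helix-turn-helix DNA-binding domain, the ETS domain, which reads a core of GGAA. ETV1, ETV4 and ETV5 form the PEA3 subfamily, which acts downstream of FGF and RAS-MAPK signaling and is degraded through the COP1 ubiquitin ligase. ELF3, ELF5, EHF and SPDEF are expressed mainly in epithelia, where ELF5 directs the alveolar lineage of the mammary gland and SPDEF directs secretory cells. ERG, FLI1, ETV1, ETV4 and ETV5 are among the ETS genes that are rearranged in prostate cancer, and ERG and FLI1 are otherwise known from endothelium and blood.

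The labelled cell type was checked against marker lists, which were chosen with earlier results of these data known. The libraries held between 17404736 and 22168525 reads in all, of which 1.37% to 7.12% fell on mitochondrial genes. In edgeR's quasi-likelihood test with Benjamini-Hochberg adjustment, 31.7% of the 16442 genes tested were higher and 31.2% were lower in the libraries labelled MI503 than in those labelled DMSO at an adjusted p under 0.05. At a log2 fold change beyond 2 in size, 12.6% were higher and 11.7% were lower. All 11 tested genes of a list of 12 luminal breast markers were higher with the MI503 label. ESR1, the estrogen receptor, had a mean of 0.0646 ± 0.112 CPM (CPM are counts per 1000000 reads, TMM-scaled) in the libraries labelled DMSO and 249 ± 43.6 CPM in those labelled MI503 (SD, n = 3 each here and below). All 12 prostate markers were lower, and KLK3, which encodes prostate-specific antigen, had 3708 ± 47.9 CPM in the DMSO libraries and no read in the MI503 libraries. The summed level of the prostate list was 7102 to 9240 CPM in the DMSO libraries and 167 to 173 CPM in the MI503 libraries, and that of the luminal breast list was 276 to 415 CPM against 9671 to 12440 CPM. The libraries labelled DMSO thus go against the T47D label on these markers, and since they are every control library, no value below could be given without them. An effect of MI-503 and any other difference between the 2 groups of libraries cannot be told apart, so a group is called by its label throughout. A gene said below to have risen or fallen had higher or lower CPM with the MI503 label than with the DMSO label. No change within the same cells is meant. P-values measure only the spread between the libraries of a label.

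Sequence upstream of 3 of the 6 genes that passed the filter is shown first, because ETV1, ELF5 and SPDEF are the members whose levels the description turns on most. Each run holds the 250 bases before the start of the gene's MANE Select transcript (the agreed reference transcript of RefSeq and Ensembl) in hg38, 5′ to 3′ on the gene's strand, with each GGAA or TTCC (a GGAA on the other strand) in capitals. For ETV1 the window was moved 281 bases further upstream, clear of annotated exons. It still lies inside the annotated span of ETV1, since other transcripts, such as ETV1-203 at chr7:13991249, start further upstream. ETV1-206, the transcript with the largest share of ETV1 TPM in the DMSO libraries, starts downstream of the MANE Select start, at chr7:13988873. The ETV1 run is thus not the sequence before that start. ETV1 lies at chr7:13989948-13990197 on the minus strand, ELF5 at chr11:34513795-34514044 on the minus strand and SPDEF at chr6:34556330-34556579 on the minus strand.
ETV1: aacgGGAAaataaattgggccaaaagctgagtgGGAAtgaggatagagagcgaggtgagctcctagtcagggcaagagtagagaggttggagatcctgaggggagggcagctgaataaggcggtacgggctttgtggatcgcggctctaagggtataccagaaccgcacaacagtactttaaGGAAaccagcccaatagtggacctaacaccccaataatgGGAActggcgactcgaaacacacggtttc
ELF5: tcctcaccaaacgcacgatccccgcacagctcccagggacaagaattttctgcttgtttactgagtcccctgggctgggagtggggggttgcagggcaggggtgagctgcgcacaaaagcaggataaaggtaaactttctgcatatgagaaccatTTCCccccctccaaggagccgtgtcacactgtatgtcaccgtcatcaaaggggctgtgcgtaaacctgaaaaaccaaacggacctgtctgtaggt
SPDEF: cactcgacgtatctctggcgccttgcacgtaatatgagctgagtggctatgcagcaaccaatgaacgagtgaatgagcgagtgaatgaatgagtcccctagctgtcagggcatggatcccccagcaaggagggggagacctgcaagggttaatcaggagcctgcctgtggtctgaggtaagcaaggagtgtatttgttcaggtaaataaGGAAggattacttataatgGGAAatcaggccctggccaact

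GGAA occurred 4 times in the ETV1 window shown, 1 time in that of ELF5 and 2 times in that of SPDEF, on both strands together. Over the 10 genes, the 250 bases before the MANE Select start held between 1 (ELF5) and 6 (ETS2) GGAA, and 92.7% of 35116 RefSeq promoter windows of the same length held at least 1, with a mean of 2.93. The longer core CCGGAAG was in none of the 10 windows and in 8.52% of the RefSeq windows. AGGAAG, which like CCGGAAG contains a GGAA, was in 4 of the 10 and in 28.7% of the RefSeq windows. The forkhead motif TGTTTAC was in the windows of ELF5 and ETV5 and in 2.98% of the RefSeq windows. The motifs were searched on both strands. The palindromic estrogen response element (GGTCA and TGACC with 3 bases between them) was in none of the 10 windows and in 0.0399% of the RefSeq windows. These matches describe letters only, since no binding was measured in these files. The windows of ELF5 and SPDEF were 54% and 50.8% G and C, beside a median of 58% over the RefSeq windows.

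Of the 6 genes that passed the filter, 2 (ELF5 and SPDEF) had higher CPM in every MI503 library than in any DMSO library, 3 (ETV1, EHF and ETS2) had lower CPM in every one, and the libraries overlapped for ELF3. Among all genes tested, 68.7% had CPM that did not overlap between the labels, so non-overlap was the common state in this comparison. Bulk RNA cannot tell fewer cells of a type from less RNA per cell. The median log2 fold change, MI503 against DMSO, was -0.33 over these 6 genes and -0.004 over all genes tested.

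**Figure D1:**
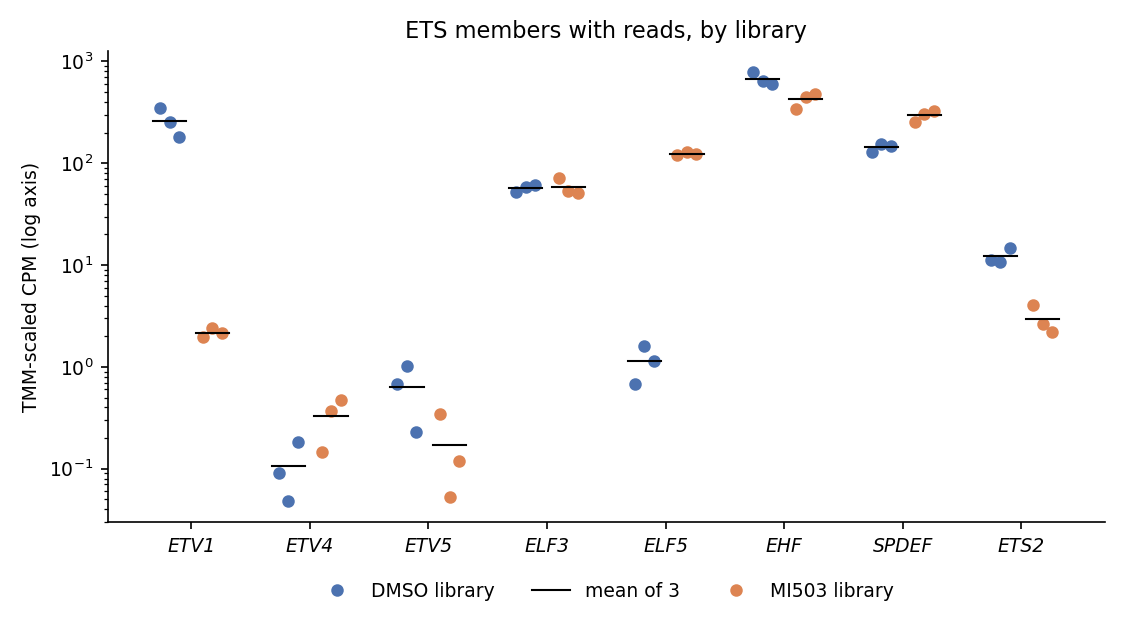
TMM-scaled CPM (log axis) of the 8 ETS genes with reads, a point for each library and a bar for the mean of 3 libraries. ETV1 lies between 181 and 348 CPM in the DMSO libraries and between 1.95 and 2.41 CPM in the MI503 libraries, ELF5 runs the other way, and ERG and FLI1 had no reads and are not drawn.

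ETV1 (ENSG00000006468, chr7:13891229-13991425, minus strand), the PEA3 factor that is overexpressed by rearrangement in a subset of prostate cancers, had 348, 255 and 181 CPM in the DMSO libraries and 1.95, 2.41 and 2.14 CPM in the MI503 libraries. All 3 DMSO libraries were high and all 3 MI503 libraries were near 2 CPM, a level that rests on 36 to 46 reads per library. The means were 261 ± 84.0 CPM and 2.17 ± 0.229 CPM, a log2 fold change of -6.91 (SE 0.30). The DMSO libraries differed among themselves by 1.93-fold in ETV1, and the MI503 libraries by 1.23-fold. With an offset for effective transcript length the log2 fold change was -6.02, and on log2(TPM + 1) it was -5.42.

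ETV4 and ETV5, the other PEA3 factors, were near the counting limit under both labels. ETV4 (ENSG00000175832) had 2, 1 and 4 reads in the DMSO libraries and 3, 7 and 8 reads in the MI503 libraries. Its ratio of reads over effective library size, MI503 to DMSO, was 2.95 with a 95% counting interval of 1.17 to 8.35, and the libraries overlapped. ETV5 (ENSG00000244405) had 15, 21 and 5 reads in the DMSO libraries and 7, 1 and 2 reads in the MI503 libraries. The ratio of DMSO to MI503 was 3.58 with a counting interval of 1.76 to 8.01, again with overlapping libraries. Intervals cover counting error only. Thus ETV1 was the 1 PEA3 gene with an appreciable level, and that in the DMSO libraries.

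ERG (ENSG00000157554) and FLI1 (ENSG00000151702) had no read in any of the 6 libraries. A count of 0 allows a level of up to 0.136 to 0.178 CPM, depending on the library (3 reads). In lists of 12 endothelial and 12 blood cell markers, where these genes are typically expressed, 4 and 3 genes passed the filter. VWF (von Willebrand factor) had 24.5 ± 8.75 CPM in the DMSO libraries and 0.0733 ± 0.0395 CPM in the MI503 libraries, and LCP1 (L-plastin) had 147 ± 23.2 CPM against 7.54 ± 1.48 CPM. In the other direction, ESAM of the endothelial list rose from 0.661 ± 0.296 to 4.59 ± 0.104 CPM (adjusted p = 0.000231), and RAC2 of the blood cell list rose from 0.0777 ± 0.0283 to 14.3 ± 2.37 CPM (adjusted p = 3.01e-07). EGFL7, CLDN5 and CORO1A were the other genes that passed the test, all lower. ICAM2 of the endothelial list and PTPRC, CD48, TYROBP, CD3E and MS4A1 of the blood cell list had no read in any library.

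ELF5 (ENSG00000135374, chr11:34478791-34525193, minus strand), which drives alveolar differentiation in the mammary gland, had 0.679, 1.60 and 1.14 CPM in the DMSO libraries and 119, 129 and 123 CPM in the MI503 libraries. Its DMSO levels rest on 15, 33 and 25 reads, and its MI503 libraries lay within 1.08-fold of each other. The means were 1.14 ± 0.460 CPM and 124 ± 4.99 CPM, a log2 fold change of 6.76 (SE 0.28), or 5.50 on log2(TPM + 1). ELF5 and ETV1 were the members that were high under 1 label and near 1 or 2 CPM under the other.

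EHF (ENSG00000135373, chr11:34621093-34663288, plus strand), an epithelial ETS factor whose gene lies 95.9 kb from ELF5, was the member with the highest CPM under both labels. It had 785, 645 and 603 CPM in the DMSO libraries and 342, 452 and 481 CPM in the MI503 libraries. The means were 678 ± 95.2 CPM and 425 ± 73.1 CPM, a log2 fold change of -0.67 (SE 0.18). Per transcript length the separation was not kept, with 252, 190 and 197 TPM (reads per effective transcript length, scaled to the same sum in every library) in the DMSO libraries and 121, 171 and 197 TPM in the MI503 libraries. On that scale MI503 library 3 overlapped the DMSO libraries, and with an offset for effective length the log2 fold change was -0.29. These TPM include short transcripts with uneven estimates, such as EHF-203 with 0, 38.2 and 38.4 TPM in the MI503 libraries. The MANE Select transcript EHF-201 alone had 212, 165 and 147 TPM in the DMSO libraries. It had 78.7, 107 and 116 TPM in the MI503 libraries, without overlap.

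ELF3 (ENSG00000163435, chr1:202007945-202017183, plus strand), an epithelium-specific factor, had 52.8, 58.6 and 61.4 CPM in the DMSO libraries and 70.9, 52.9 and 50.6 CPM in the MI503 libraries. MI503 library 1 was above all DMSO libraries and MI503 library 3 below them. The log2 fold change was 0.013 (SE 0.17).

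SPDEF (ENSG00000124664, chr6:34537802-34556333, minus strand), the prostate-derived ETS factor that is also expressed in luminal breast cells, had 130, 155 and 149 CPM in the DMSO libraries and 256, 304 and 328 CPM in the MI503 libraries. The means were 145 ± 13.4 CPM and 296 ± 36.7 CPM, a log2 fold change of 1.03 (SE 0.16). SPDEF was thus above 100 CPM under both labels, whereas ETV1 and ELF5 were low under 1 of them.

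ETS2 (ENSG00000157557, chr21:38805183-38824955, plus strand), a widely expressed factor activated by MAPK phosphorylation, had 11.3, 10.7 and 14.6 CPM in the DMSO libraries and 4.10, 2.67 and 2.20 CPM in the MI503 libraries. The means were 12.2 ± 2.09 CPM and 2.99 ± 0.988 CPM, a log2 fold change of -2.02 (SE 0.31). ERG lies 143.4 kb from ETS2 on chromosome 21 and had no reads.

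Levels were compared between genes per transcript length, in TPM. In the DMSO libraries the order was EHF (213 ± 34.0 TPM), ETV1 (125 ± 51.1 TPM), SPDEF (107 ± 4.18 TPM), ELF3 (53.9 ± 2.94 TPM), ETS2 (6.67 ± 1.19 TPM) and ELF5 (0.749 ± 0.297 TPM). ETV1 and SPDEF, neighbors in that order, did not differ beyond their spread, since ETV1 ranged from 81.8 to 182 TPM and SPDEF from 103 to 111 TPM. In the MI503 libraries the order was SPDEF (203 ± 25.9 TPM), EHF (163 ± 38.6 TPM), ELF5 (77.5 ± 3.93 TPM), ELF3 (58.9 ± 16.0 TPM), ETV1 (1.88 ± 0.840 TPM) and ETS2 (1.50 ± 0.586 TPM). There SPDEF and EHF overlapped, as did ELF5 and ELF3, and ETV1 and ETS2. The TPM of a gene counts all its annotated transcripts, also those without a coding sequence. In the MI503 libraries such transcripts of ELF3 included ELF3-206 (mean 16.2 TPM) and ELF3-209 (mean 13.2 TPM). The coding transcripts ELF5-201 and ELF3-202 had means of 64.4 and 23.4 TPM there and did not overlap. Of the 1.88 TPM of ETV1 there, the coding transcript ETV1-206 held 0.333 TPM.

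Summed over the 28 ETS genes, with all their annotated transcripts, coding or not, TPM came to 650 ± 99.5 in the DMSO libraries. In the MI503 libraries the sum was 700 ± 36.5, and the libraries overlapped. The 10 members made up 77.9% ± 0.472 of this sum in the DMSO libraries and 72.2% ± 3.58 in the MI503 libraries. EHF took 32.7% ± 1.30 of the ETS sum in the DMSO libraries and 23.1% ± 4.39 in the MI503 libraries. ETV1 took 18.8% ± 4.85 and 0.273% ± 0.133, ranging from 14.1% to 23.8% among the DMSO libraries. SPDEF took 16.7% ± 2.80 and 29.0% ± 2.27. ELF5 took 0.120% ± 0.0571 and 11.1% ± 0.263. ELF3 held 8.45% ± 1.61 under the DMSO label and 8.50% ± 2.80 under the MI503 label.

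**Figure D2:**
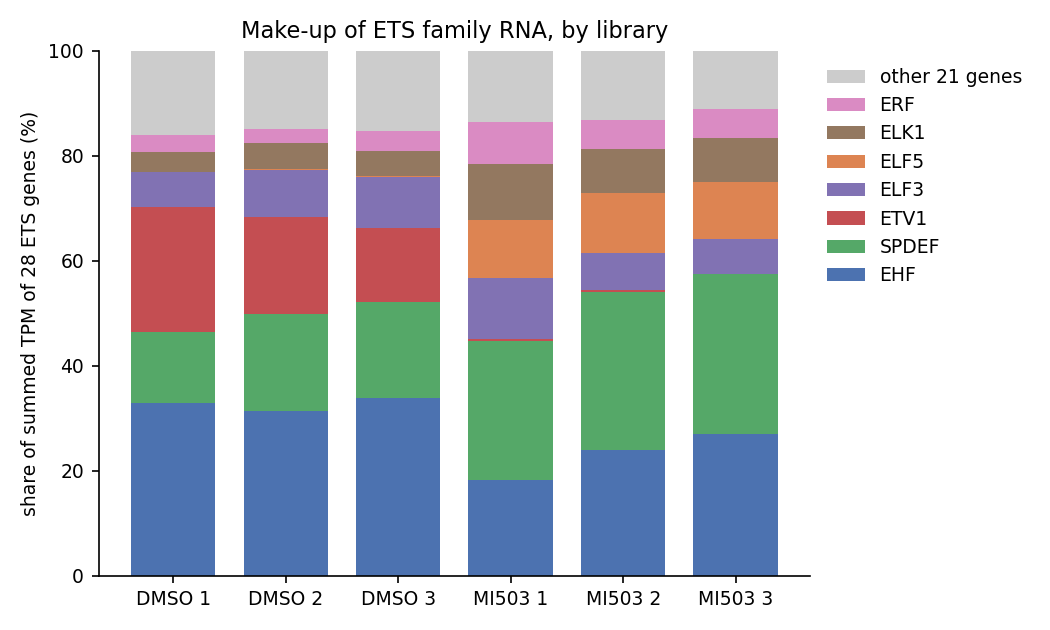
Share of the summed TPM of 28 ETS genes (%) taken by 7 of them and by the other 21 together, a stacked bar for each library. The ETV1 segment of the DMSO libraries (14.1% to 23.8%) is below 0.4% in the MI503 libraries, where ELF5 takes 10.8% to 11.3% and SPDEF 26.4% to 30.5%.

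The other 18 ETS genes were not chosen by their level, and their rows of the fit are given with the test, by edgeR's quasi-likelihood test with Benjamini-Hochberg adjustment over all 16442 genes. Of these 18, 13 passed the filter (ETS1, ETV2, ETV3, ETV6, ETV7, ELF1, ELF2, ELF4, ELK1, ELK3, ELK4, GABPA and ERF). With the MI503 label, 4 of the 13 were higher, 4 were lower and the test was not passed by 5, with a median log2 fold change of 0.12. These shares lie near the 31.7% higher and 31.2% lower among all genes tested. FEV, ETV3L, SPI1, SPIB and SPIC did not pass the filter.

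ELF4, an activator best known from lymphocytes, rose from 4.90 ± 0.190 to 32.3 ± 2.62 CPM (log2 fold change 2.72, SE 0.19, adjusted p = 1.6e-06). ELK1, a ternary complex factor that binds with SRF, rose from 50.7 ± 0.679 to 124 ± 11.8 CPM (1.29, SE 0.14, adjusted p = 3.87e-05). ERF, a repressor inactivated by ERK, rose from 28.3 ± 5.36 to 61.6 ± 11 CPM (1.12, SE 0.20, adjusted p = 0.000777). ETV7 had 3 reads over the DMSO libraries and 111 over the MI503 libraries (ratio 42.4, counting interval 14.1 to 209, adjusted p = 8.61e-05). These 4 genes were higher in every MI503 library than in any DMSO library.

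ETS1, the founding member of the family and the gene next to FLI1 (99.0 kb away), had 112, 77 and 68 reads in the DMSO libraries and none in the MI503 libraries, at least 74.8-fold lower when counted against 3 reads over the group (adjusted p = 3.5e-05). ETV6, a repressor known from leukemia fusions, fell from 13.5 ± 1.78 to 7.92 ± 2.33 CPM (adjusted p = 0.03). ELK4 fell from 92.8 ± 9.31 to 65.5 ± 14 CPM (adjusted p = 0.0348). ETV2 fell from 1.10 ± 0.583 to 0.434 ± 0.139 CPM with overlapping libraries (adjusted p = 0.0494). Of these 4, only ETS1 kept an adjusted p under 0.05 when DMSO replicate 1, MI503 replicate 2 or MI503 replicate 3 was left out.

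The 5 genes that did not pass the test were ETV3 (47.2 ± 6.83 and 45.7 ± 3.21 CPM, DMSO and MI503), ELF1 (33.7 ± 6.71 and 26.6 ± 2.22 CPM), ELF2 (27.4 ± 6.49 and 30.8 ± 6.71 CPM), ELK3 (7.52 ± 2.09 and 8.39 ± 2.32 CPM) and GABPA (44.6 ± 8.39 and 48.5 ± 6.50 CPM). Their log2 fold changes lay between -0.34 and 0.17. ELF1, ELF2 and GABPA are broadly expressed activators and ETV3 is a repressor.

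**Figure D3:**
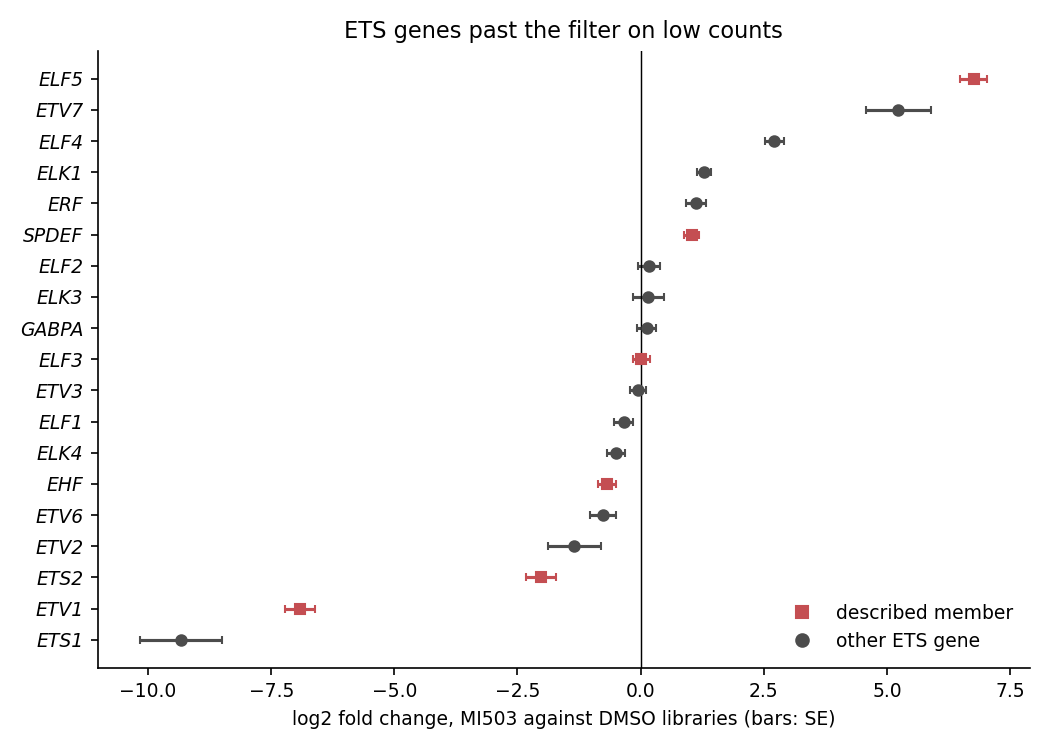
Log2 fold change with its SE, MI503 against DMSO libraries, of the 19 ETS genes that passed the filter on low counts, with members as squares and other ETS genes as circles. ELF5 (6.76) and ETV1 (-6.91) lie far from 0, most others lie within 3 of it, and the fitted value of ETS1, which had no reads in the MI503 libraries, is not a bound on its fold.

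Genes beside the members were compared next, as position was not used to choose them. The 2 nearest protein-coding genes on each side that passed the filter, other than members, came to 32 different genes. They lay up to 2608.4 kb from the member. Of these, 21 were higher and 3 lower with the MI503 label, beside 31.7% higher and 31.2% lower among all genes. The other 8 did not pass the test. DGKB, a diacylglycerol kinase gene 153.6 kb from ETV1, fell from 22 ± 6.56 to 0.0872 ± 0.0243 CPM (log2 fold change -7.86, SE 0.43, adjusted p = 2.95e-07). ETV1 and DGKB thus differed in the same direction. ANKMY2, the next tested gene beyond DGKB but 2608.4 kb from ETV1, was higher (1.84, SE 0.21, adjusted p = 4.33e-05). PACSIN1, 2.6 kb from SPDEF, rose from 13 ± 0.772 to 121 ± 10.4 CPM (3.22, SE 0.16, adjusted p = 1.71e-07), and ILRUN, 31.0 kb away on the other side, rose from 91.2 ± 3.73 to 301 ± 19.9 CPM (1.72, SE 0.14, adjusted p = 4.6e-06). SPDEF and both of these neighbors were higher with the MI503 label.

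ELF5 and EHF are adjacent and differed in opposite directions. Of the tested genes around them, CAT (catalase, 6.7 kb from ELF5), ABTB2 and PDHX did not pass the test, with log2 fold changes of 0.22 (SE 0.18), -0.035 (SE 0.19) and 0.087 (SE 0.15). APIP was higher (1.31, SE 0.19, adjusted p = 0.000201). IGF2BP2, 221.3 kb from ETV5, had no read in the DMSO libraries and 37.0 ± 3.50 CPM in the MI503 libraries, while ETV5 itself had at most 1.02 CPM in any library.

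**Figure D4:**
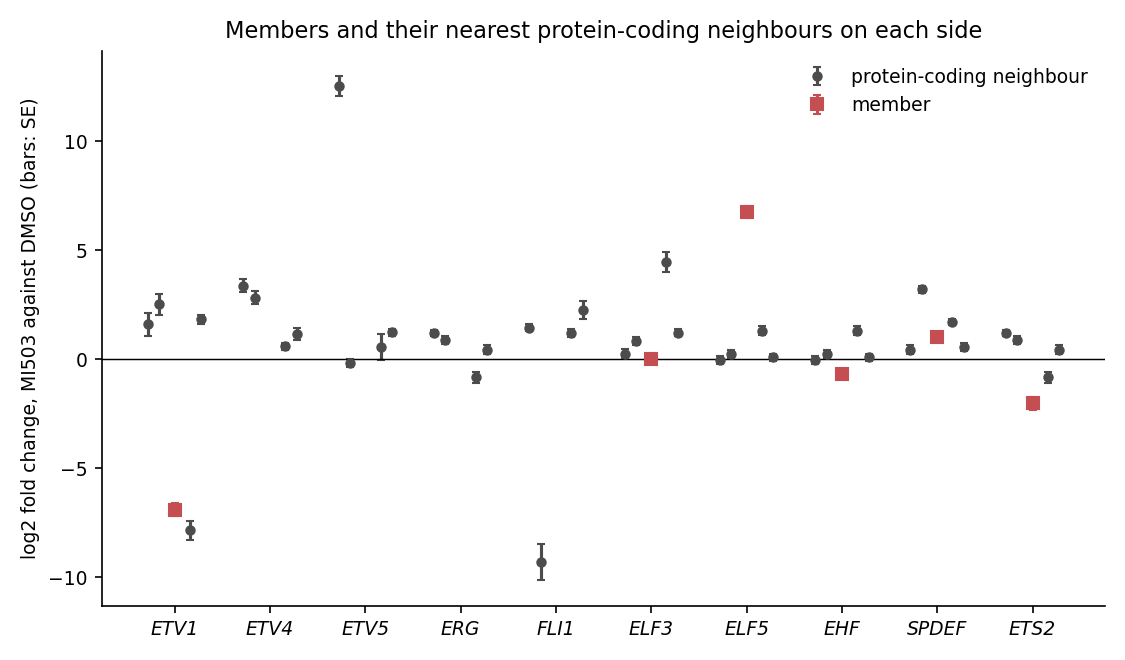
Log2 fold change with its SE, MI503 against DMSO libraries, of members that passed the filter (squares) and of neighboring genes (circles). The circles are the 2 nearest tested protein-coding genes other than members on each side, in order of position and not to scale. DGKB (-7.86) lies beside ETV1 (-6.91), ETS1 beside FLI1 is the lowest circle and was at 0 reads in the MI503 libraries, and ELF5 and EHF share their neighbors, as do ERG and ETS2.

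Some members overlap other genes, and the library kit's strandedness is not given in the sources used here, so reads of overlapping genes may not be told apart. ELF3-AS1, on the strand opposite to ELF3, had 417, 392 and 462 reads in the DMSO libraries and 84.5, 70.5 and 69.0 reads in the MI503 libraries, while ELF3 itself overlapped between labels. DHX8, an RNA helicase gene that contains ETV4 on the opposite strand, had 56.6 ± 5.67 and 69.2 ± 0.925 CPM and did not pass the test. ETV5-AS1 and DGKG, which overlap ETV5, had no reads.

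Transcript shares, which the rule did not use to choose the members, were taken from salmon's TPM per transcript as a description. Such estimates are uncertain between transcripts that share most exons. ETV1-206, which starts at chr7:13988873 inside the span of the MANE Select transcript ETV1-208, held 47.6%, 51.8% and 50.3% of ETV1 TPM in the DMSO libraries. The transcript ETV1-202, which starts further downstream and has a shorter coding sequence, held 12.4%, 12.1% and 10.5%, and ETV1-208 held 4.78%, 5.99% and 5.76%. In the MI503 libraries ETV1-206 held 16.3%, 11.1% and 36%, shares of 36 to 46 reads that carry little precision. Over protein-coding transcripts alone, ETV1-206 had 58.2% in the DMSO libraries and 38.6% in the MI503 libraries.

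ELF3, whose level overlapped between labels, differed in the transcript shares that salmon assigned. The MANE Select transcript ELF3-203, with a longer last exon than ELF3-202, held 20.6%, 19.1% and 18.6% of ELF3 TPM in the DMSO libraries and 2.96%, 5.03% and 4.36% in the MI503 libraries. ELF3-202, which has the same coding length of 1113 bases, held 30.2%, 27.5% and 24.3% against 33.6%, 43.9% and 45.3%. The libraries of the labels did not overlap for either transcript. Non-overlap of shares over all transcripts was not counted, while 68.7% of genes tested did not overlap in CPM. ELF3-202 and ELF3-203 have the same annotated start, so the split between them is among the uncertain estimates. ELF3-206, which has no annotated coding sequence, held 21.3% to 34.7% and 24.2% to 30.5%.

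EHF-201, the MANE Select transcript, held 84.0%, 87.3% and 74.8% of EHF TPM in the DMSO libraries and 65.3%, 62.4% and 58.8% in the MI503 libraries. The short transcript EHF-203 varied within the MI503 label, with 0, 22.4% and 19.6%. SPDEF-201 held 97.3% ± 0.134 and 99.0% ± 0.876 of SPDEF TPM, so nearly all SPDEF RNA was assigned to 1 transcript under both labels. ELF5-201 held 77.1%, 85.0% and 86.6% of ELF5 TPM in the MI503 libraries, and ETS2-206 held 67.8% ± 6.38 and 60.4% ± 11.2 of ETS2 TPM.

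**Figure D5:**
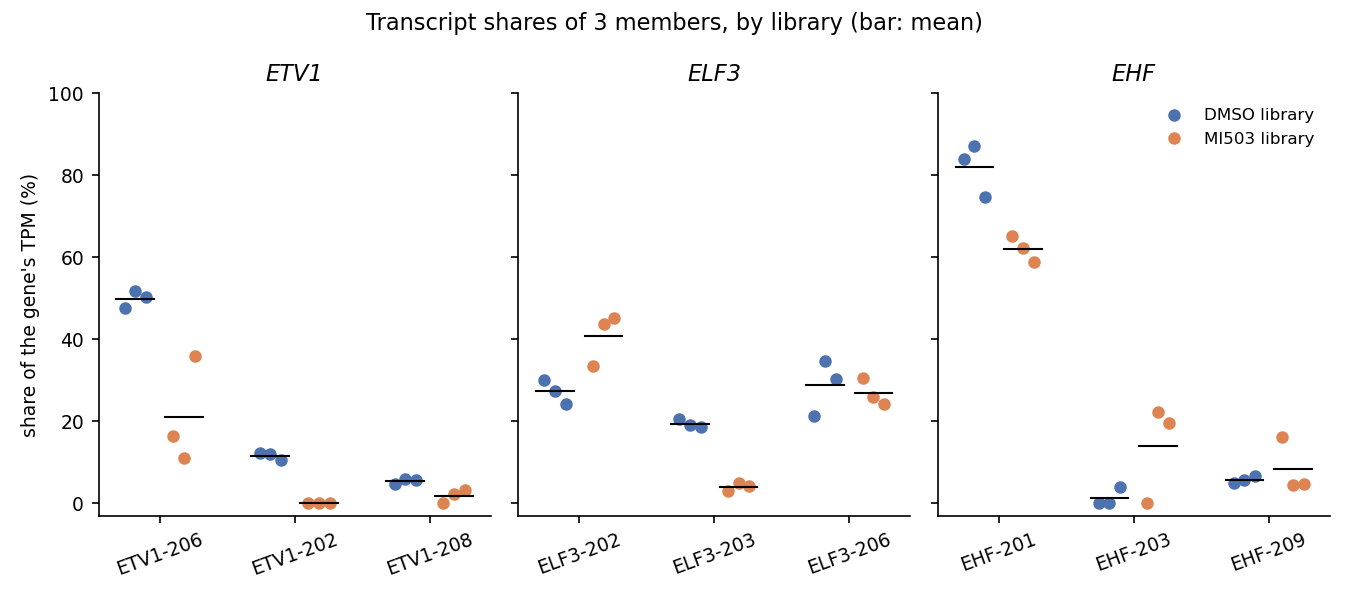
Share of the gene's TPM (%) held by 3 transcripts each of ETV1, ELF3 and EHF, a point for each library and a bar for the mean of 3. ELF3-203 is at 18.6% to 20.6% in the DMSO libraries and at 2.96% to 5.03% in the MI503 libraries, and EHF-201 is at 74.8% to 87.3% against 58.8% to 65.3%.

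The genes whose pattern over the 6 libraries lay nearest to ETV1, by Euclidean distance in log2(CPM + 1), were SLC16A1 (distance 0.709), which encodes a lactate transporter, CALD1 (0.974), which encodes caldesmon, and TPM4 (1.30), a tropomyosin gene. SLC16A1 had 459, 337 and 214 CPM in the DMSO libraries and 1.51, 2.77 and 2.67 CPM in the MI503 libraries. Like ETV1, SLC16A1 was highest in DMSO library 1 and lowest in DMSO library 3. Nearest to SPDEF were RNF26 (0.258), CAPZB (0.354) and SLC2A4RG (0.374). RNF26, a ubiquitin ligase gene, had 119, 142 and 141 CPM in the DMSO libraries and 285, 297 and 315 CPM in the MI503 libraries.

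The pathways in which these ETS factors work were described through lists, each beside 31.7% higher, 31.2% lower and a median log2 fold change of -0.004 over all genes. COP1, the ubiquitin ligase that marks ETV1, ETV4 and ETV5 for degradation, rose from 30.2 ± 3.11 to 46.1 ± 5.53 CPM (log2 fold change 0.61, SE 0.17, adjusted p = 0.00953). Of the 8 tested genes of 9 in the COP1 ubiquitin ligase list, 2 were higher and 3 lower, with a median of -0.27, and 1 was lower without DMSO replicate 2, MI503 replicate 2 or MI503 replicate 3. DDB1, the adaptor of the CUL4 ligase, rose from 163 ± 8.58 to 507 ± 27.5 CPM (adjusted p = 7.15e-06), whereas its scaffold CUL4A fell from 336 ± 27.7 to 98.5 ± 8.94 CPM (adjusted p = 6.02e-06). DDA1 and CUL4B also fell, and TRIB1, which recruits substrates, had 21.1 ± 6.48 and 17.8 ± 5.62 CPM and did not pass the test.

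Of 17 partners and cofactors of ETS factors, all tested, 5 were higher and 7 lower, with a median of -0.04. The count of higher genes was 2 without DMSO replicate 2, and 3 without MI503 replicate 1 or MI503 replicate 2. RUNX1, which binds DNA together with ETS1, rose from 3.25 ± 0.569 to 76.5 ± 9.89 CPM (4.55, SE 0.21, adjusted p = 1.21e-07), and its partner CBFB fell from 69.5 ± 3.98 to 29.6 ± 4.62 CPM (adjusted p = 0.000141). EWSR1, the partner of FLI1 in the Ewing sarcoma fusion, fell from 363 ± 63.4 to 153 ± 8.18 CPM (adjusted p = 0.000118). Among the partners that did not pass the test was FOXA1, the pioneer factor of luminal and prostate cells, at 474 ± 101 and 472 ± 89.5 CPM, and SRF, the partner of ELK1, at 73.7 ± 4.91 and 71.6 ± 15.2 CPM.

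Of 16 listed genes of FGF and MAPK feedback and response, 14 were tested. Of these, 4 were higher and 4 lower, with a median of -0.47, and 2 were lower without DMSO replicate 1, MI503 replicate 1 or MI503 replicate 2. IER3 rose from 1.01 ± 0.458 to 193 ± 45.5 CPM (adjusted p = 1.16e-07), and SPRY2, an inhibitor of receptor tyrosine kinase signaling, rose from 0.712 ± 0.144 to 3.83 ± 0.231 CPM (adjusted p = 0.000305). PHLDA1 rose from 3.66 ± 2.05 to 32.1 ± 18.4 CPM (adjusted p = 0.000696), and MYC fell from 340 ± 105 to 25.9 ± 9.42 CPM (-3.71, SE 0.32, adjusted p = 6.13e-06). DUSP6, an ERK phosphatase, was also higher, and DUSP4, SPRED1 and EGR1 were also lower. The genes of this list that passed the test were thus split between the directions.

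Of 13 genes of invasion that ETS factors are known to activate, 6 passed the filter, 2 were higher and 1 lower, with a median of 0.61. TIMP1, an inhibitor of metalloproteinases, rose from 0.107 ± 0.105 to 32.3 ± 2.73 CPM (adjusted p = 1.53e-07) and ICAM1 rose from 0.660 ± 0.239 to 44.9 ± 10.2 CPM (adjusted p = 2.23e-07). MMP7 fell from 9.48 ± 2.23 to 0.0570 ± 0.0595 CPM (adjusted p = 4.06e-06). VIM and MMP14 were under 1 CPM on average under both labels.

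Of 12 genes that are known to be fused to ETS genes in prostate cancer, all tested, 7 were lower and 1 higher, with a median of -1.25, and 5 were lower beyond a log2 fold change of 2, beside 11.7% of all genes. TMPRSS2 fell from 404 ± 168 to 33.3 ± 0.634 CPM (-3.60, SE 0.31, adjusted p = 6.35e-06), and SLC45A3 fell from 162 ± 45.6 to 5.89 ± 1.21 CPM (adjusted p = 3.2e-07). NDRG1 fell from 325 ± 40.3 to 16.1 ± 8.65 CPM (adjusted p = 5.97e-06), and KLK2 fell from 355 ± 35.6 to 0.0163 ± 0.0281 CPM (adjusted p = 1.11e-08). CANT1 was the gene that was higher, at 288 ± 35.5 and 415 ± 63.8 CPM (adjusted p = 0.0209). It lost this call on log2(TPM + 1), with the length offset, and without DMSO replicate 2, DMSO replicate 3 or MI503 replicate 2. TMPRSS2, SLC45A3 and KLK2 also stand in the prostate marker list, which moved with the label as a whole, and the part of those markers in this count was not tested.

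Of 16 genes of epithelial transcription and adhesion, all tested, 8 were higher and 4 lower, with a median of 0.50. TFAP2A rose from 6.99 ± 0.970 to 245 ± 50.0 CPM (5.13, SE 0.22, adjusted p = 8.22e-08), and TFAP2C rose from 37.5 ± 1.58 to 124 ± 5.54 CPM (adjusted p = 4.72e-06), both AP-2 factors of luminal cells. ST14, the membrane protease matriptase, rose from 192 ± 13.2 to 662 ± 57.0 CPM (adjusted p = 6e-06), and GRHL1 rose from 16.8 ± 0.719 to 57.2 ± 12.9 CPM (adjusted p = 3.65e-05). The 4 lower genes were CLDN7, a claudin gene (390 ± 69.9 to 139 ± 23.2 CPM, adjusted p = 9.06e-05), CDH1, which encodes E-cadherin (992 ± 281 to 602 ± 6.03 CPM, adjusted p = 0.0115), MARVELD2 and KLF5. TFAP2C is also in the luminal breast list, which moved with the label.

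Of 15 genes of the SPDEF secretory programme, 9 passed the filter, 6 were higher and 1 lower, with a median of 3.53, and 5 were higher beyond a log2 fold change of 2, beside 12.6% of all genes. AGR2, a disulfide isomerase of secretory cells, rose from 27.8 ± 7.19 to 1106 ± 138 CPM (5.32, SE 0.24, adjusted p = 1.03e-07), and its homolog AGR3 rose from 0.0152 ± 0.0263 to 93.2 ± 7.45 CPM (adjusted p = 2.07e-08). TFF1, a trefoil factor, rose from 1.16 ± 0.153 to 88.2 ± 13.9 CPM (adjusted p = 3.31e-08). FCGBP fell from 28.3 ± 8.58 to 0.0198 ± 0.0343 CPM (adjusted p = 3.12e-07). TFF2 and CLCA1 had no reads in any library. SPDEF was higher by a log2 fold change of 1.03, and TFF1 is also in the luminal breast list, which moved with the label, and the part of those markers in this count was not tested.

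Of 13 genes of the ELF5 alveolar programme, 6 passed the filter, 2 were higher and 2 lower, with a median of -0.14. PRLR, the prolactin receptor, rose from 1.51 ± 0.601 to 2628 ± 352 CPM (10.77, SE 0.37, adjusted p = 2.44e-08), and STAT5A, its signal transducer, rose from 0.0767 ± 0.0245 to 12.6 ± 1.26 CPM (7.24, SE 0.39, adjusted p = 2.95e-07). PRLR is also in the luminal breast list, which moved with the label, and the part of those markers in this count was not tested. ALDH1A3, a marker of luminal progenitors, fell from 49.3 ± 18.7 to 4.70 ± 2.04 CPM (adjusted p = 4.09e-05), and LTF, which encodes lactoferrin, fell from 1.50 ± 0.593 to 0.0174 ± 0.0302 CPM (adjusted p = 0.000184). The milk protein genes CSN1S1, CSN3 and LALBA and the milk fat gene BTN1A1 had no reads in any library. ELF5 at 124 CPM was thus not accompanied by reads of these 4 milk genes at this depth.

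Markers of other cell types were counted once. Of 4 tested endothelial markers 1 was higher and 3 lower, with summed levels of 49.8 to 81.7 CPM in the DMSO libraries and 21.6 to 27.2 CPM in the MI503 libraries. Of 3 tested blood cell markers 1 was higher and 2 lower, with sums of 130 to 172 and 18.3 to 25.8 CPM. Of 4 tested basal and squamous markers 2 were higher and 1 lower, with sums of 6.29 to 9.82 and 5.17 to 8.61 CPM, and KRT5, KRT17, DSG3 and SPRR1A had no reads. KRT14 had 4.38 ± 0.421 CPM in the DMSO libraries and no reads in the MI503 libraries (adjusted p = 2.1e-05). KRT13 had no reads in the DMSO libraries and 1.75 ± 0.645 CPM in the MI503 libraries (adjusted p = 0.000138), IVL had 0.0151 ± 0.0261 and 1.46 ± 0.705 CPM (adjusted p = 0.000202), and TRIM29 did not pass the test at 3.24 ± 1.51 and 2.97 ± 0.717 CPM.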

How the data were processed

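RNA had been extracted on RNeasy columns, and Novogene made and sequenced the libraries. The authors quantified transcripts with salmon (Illumina DRAGEN). The deposited files hold estimated counts of reads per transcript, not normalized, and TPM, which salmon scaled by effective length within each library. The submitters' notes name GRCh38.p13 and hg38. Salmon's version, annotation and strand setting were not given in the sources used here. GENCODE release 44 was used to sum transcripts to genes, with a match for 229321 of 232117 transcripts (98.8%) and for 99.16% or more of each library's reads. Counts were summed per gene, rounded and, after filterByExpr, tested with edgeR 4.0.16 (TMM, quasi-likelihood, Benjamini-Hochberg) between the 3 MI503 and 3 DMSO libraries without a replicate block. TMM factors were 0.934 to 1.053. A call was an adjusted p under 0.05, also given with a log2 fold change beyond 2. Alternatives used DESeq2 1.42.0, limma 3.58.1 on log2(TPM + 1), other scalings, filters, an effective length offset, each library left out and a replicate block. The test was also run on simulated counts with far fewer changed genes than these data. That run cannot check the calls where so many genes differ. Upstream bases were read from hg38.

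The members, the 14 lists and the tests were chosen with earlier results of these data known. Named were all members, the other ETS genes with at least 1 CPM in a group, up to 4 genes with the smallest adjusted p per list, neighbors and overlapping genes, and the 3 genes nearest in pattern to ETV1 and SPDEF. Marker genes at the check of labels, further called list genes given without values, and those given as not passing the test or without reads, as well as COP1, CANT1, CLDN7 and CDH1, were named after their values were seen. An upstream window, a neighboring gene and a list gene are not reported here.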

Additional observations from a re-analysis of the deposited data

How the results depend on the processing

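Of 725 values recomputed under the alternatives, no called value changed sign. A count within a fixed ratio of the main count was taken as unchanged. A move from 2 to 3 higher COP1 list genes without DMSO replicate 1 was so taken, as were 4649 higher genes without DMSO replicate 2. By this rule, 35 values no longer passed the threshold or fell to a lower count, 5 rose and 10 moved by over 1 SD. Genes called higher and lower numbered 5208 and 5130, and 4827 and 5582 with upper-quartile scaling, which shifted the median of all genes to -0.101. Of 84 values of the members, 6 moved, with ranges of -7.12 to -5.42 for ETV1, 5.50 to 7.08 for ELF5, -0.76 to -0.29 for EHF, -2.32 to -1.63 for ETS2, 0.91 to 1.13 for SPDEF and -0.15 to 0.21 for ELF3, so the sign held for all but ELF3, whose libraries overlapped. On log2(TPM + 1), the COP1 list had 1 higher gene and the fusion partners 0, as they also had with the length offset. Without a filter on low counts, more genes were tested, and invasion genes numbered 4 higher and 3 lower, fusion partners 2 higher, secretory genes 2 lower and basal markers 2 lower. With a filter at 1 CPM, 1 basal marker was higher and 1 alveolar gene lower. Over protein-coding transcripts alone, ELF3-203 held 40.5% (DMSO) and 8.85% (MI503) and ETV1-206 held 58.2% and 38.6%.

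Leaving out 1 library, partners called higher numbered 2 to 5, fusion partners higher 0 to 1, other ETS genes lower 1 to 3, COP1 list genes lower 1 to 3 and feedback genes lower 2 to 4. The partners had 2 without DMSO replicate 2 and 3 without MI503 replicate 1 or 2. CANT1 lost its call without DMSO replicate 2, DMSO replicate 3 or MI503 replicate 2, and the COP1 list had 1 lower gene without DMSO replicate 2, MI503 replicate 2 or MI503 replicate 3. The feedback list had 2 lower genes without DMSO replicate 1, MI503 replicate 1 or MI503 replicate 2. ETV2 lost its call under 8 alternatives. The correlations of deviations between libraries of the same replicate number were -0.009, 0.163 and -0.037. With 3 libraries per label, these cannot show whether the replicate numbers pair the libraries. With the replicate block, 5071 genes were higher and 4913 lower, and 4 and 3 of the other ETS genes. Members at 0 to 21 reads per library are limited by depth.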
